A study of Mus musculus with 12 samples.

Results

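The genes described are 8 that take fatty acids into the absorptive cell of the small intestine and rebuild them into triglyceride: Cd36, Slc27a4, Fabp1, Fabp2, Acsl5, Mogat2, Dgat1 and Dgat2. They were chosen by name for this role, though with earlier results of these data known. All 8 were found among the 35275 genes of the deposited count table. RNA came from the ileum, the distal segment of the small bowel, of C57BL/6 mouse pups on postnatal day 14. The pups of 3 dams whose pregnancy included restraint in a ventilated tube (2 h a day, gestational day 7 to 19) are called stressed, and those of 3 dams that stayed in their home cages are called control. Each dam gave 1 male and 1 female pup, so that there were 12 libraries in 4 groups of 3, and a pup is named by its dam's number. Both groups had the same strain, a standard diet and food and water at will, and the labels name no transgene. The labels name whole ileum tissue and do not say from which part of the ileum a piece was cut. The design asks whether restraint of the pregnant dam altered expression in the offspring's ileum, in males and in females.

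Milk fat reaches the enterocyte, the absorptive cell, as fatty acids and monoacylglycerol. CD36 and FATP4, the product of Slc27a4, help fatty acids across the brush border, the fatty acid binding proteins FABP1 and FABP2 hold them in the cytosol, and ACSL5 joins them to coenzyme A. MGAT2 (Mogat2) then adds an acyl group to monoacylglycerol and the DGAT enzymes add the last one, which gives the triglyceride that is packed into chylomicrons. FABP1 is known as a protein of the upper small intestine, whereas the bile acid binding protein FABP6 marks the ileum.

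Libraries held between 16423523 and 22975526 counted reads, and every male library (at most 20075567) was smaller than every female library (at least 20730243). The enterocyte markers were present in all libraries, with a summed level of 5805.5 to 7670.6 CPM (read counts scaled to library size by TMM) in 10 of them. The 2 libraries of control dam 3 stood apart. Their enterocyte markers summed to 10661.0 CPM in the male and 9136.7 CPM in the female. Not all of these markers were high, and in the male Epcam and Cldn7 lay within the range of the other 10. In the pair, 7 markers of the proximal small intestine summed to 6699.4 and 2958.3 CPM against 398.6 to 806.9 CPM in the other 10. Lct made up most of these proximal sums, at 5240.1 and 2317.6 CPM. Gata4, which encodes a GATA factor of duodenum and jejunum, lay at 134.6 and 51.0 CPM in this pair and between 0.329 and 4.06 CPM elsewhere. In the female of the pair, the proximal markers Onecut2 (0.609 CPM) and Cyp26b1 (11.5 CPM) lay within the range of the other 10 (0.198 to 1.53 and 9.87 to 16.0 CPM). The 8 distal ileum markers summed to 737.2 CPM in the male and 1704.3 CPM in the female of this pair, against 765.0 to 2642.3 CPM elsewhere, and did not all lie one way. Fabp6 stood at 0.716 CPM in the male and 61.0 CPM in the female of control dam 3 (29.9 to 607.7 CPM elsewhere), and Slc6a14, an amino acid transporter, at 0.130 and 6.37 CPM (58.5 to 108.2 CPM elsewhere). Slc51b, a subunit of the basolateral bile acid transporter, was higher in the pair, at 15.2 and 21.0 CPM (3.94 to 14.0 CPM elsewhere), and Fgf15 was lowest in the male (24.7 CPM) and highest in the female (185.6 CPM). The 7 liver markers summed to 45.0 and 139.0 CPM in the pair and 99.05 to 216.2 CPM elsewhere, most of it Serpina1b and Ttr, while Alb and Ahsg were at or below 0.304 CPM in all 12 libraries. The 8 adipocyte markers, Fabp4 among them, summed to 283.2 and 348.0 CPM in the pair and 106.4 to 370.9 CPM elsewhere. Adipoq ran from 0.148 CPM in control male 2 to 24.1 CPM in stressed male 2. The 7 pancreas markers summed to 61.6 and 46.1 CPM in the pair and 6.15 to 20.5 CPM elsewhere. Of these, Clps was present in all 12 libraries (44.2 and 33.8 CPM in the pair, 6.10 to 20.3 CPM elsewhere), Ctrb1 stood at 17.4 and 12.2 CPM against at most 0.651 CPM, and Cpa1, Cela2a, Pnlip and Prss2 were at 0 in all 12. A second set, stressed males 1 and 3 and control male 1, was rich in the noncoding RNA Yam1, at 14021.4, 43125.8 and 10031.5 CPM against at most 5708.3 CPM elsewhere. Each gene is therefore also given without control dam 3, and the comparisons within sex also without the Yam1-rich males.

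Levels of different genes are compared as FPKM, the values per gene length that the authors deposited. Over the 10 libraries outside control dam 3, Dgat2, an enzyme of the last step of triglyceride synthesis, had the highest median at 326.2 FPKM and ranged from 288.8 to 387.9 FPKM. Acsl5 followed at 223.8 FPKM (144.9 to 261.4 FPKM) and Fabp2 at 187.0 FPKM (87.7 to 273.1 FPKM), and these ranges overlapped each other but not that of Dgat2. Slc27a4, Mogat2 and Dgat1 had medians of 99.2, 95.6 and 71.3 FPKM, with ranges that overlapped each other. Those of Slc27a4 and Mogat2 also overlapped that of Fabp2, and that of Dgat1 (60.05 to 82.4 FPKM) lay below it. Cd36 was lower at 18.9 FPKM (11.4 to 26.7 FPKM). Fabp1 came last at 0.922 FPKM (0.270 to 1.19 FPKM). Its range and that of Cd36 overlapped with no neighbour in this order. In control male 3 the order was another one: Fabp1 was first at 2223.2 FPKM, followed by Fabp2 at 1942.9 FPKM and Dgat2 at 595.1 FPKM. In control female 3 Fabp2 led at 647.6 FPKM, and Fabp1, at 290.1 FPKM, came after Dgat2 and Acsl5.

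**Figure D1:**
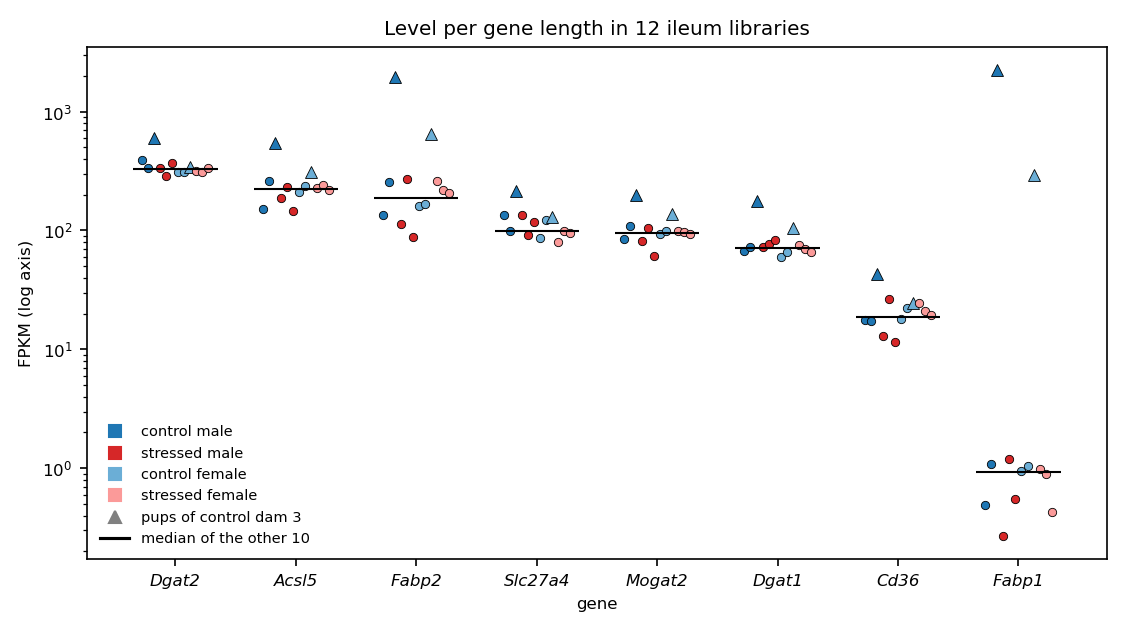
FPKM (log axis) of the 8 genes in the 12 libraries, ordered by the median of the 10 libraries outside control dam 3 (black lines); colours give the group and triangles the 2 pups of control dam 3. Fabp1 lies at or under 1.19 FPKM in 10 libraries and at 2223.2 and 290.1 FPKM in the pups of control dam 3.

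Fabp1 and Fabp2 are the genes whose levels differed most between libraries, so the 250 bases before their start are shown, from RefSeq on GRCm38.p6. The Fabp1 stretch is chr6:71199629-71199878 on the plus strand and the Fabp2 stretch is chr3:122894822-122895071 on the plus strand. The annotation of the count table starts Fabp1 at 71199827, inside the printed stretch, because it places the start further upstream than RefSeq. Capitals mark matches to any of 6 short motifs, searched on both strands.
Fabp1: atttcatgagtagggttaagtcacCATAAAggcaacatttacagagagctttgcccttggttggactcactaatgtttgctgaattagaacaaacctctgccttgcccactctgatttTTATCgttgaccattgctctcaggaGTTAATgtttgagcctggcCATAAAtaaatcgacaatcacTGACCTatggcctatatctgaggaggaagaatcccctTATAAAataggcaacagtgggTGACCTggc
Fabp2: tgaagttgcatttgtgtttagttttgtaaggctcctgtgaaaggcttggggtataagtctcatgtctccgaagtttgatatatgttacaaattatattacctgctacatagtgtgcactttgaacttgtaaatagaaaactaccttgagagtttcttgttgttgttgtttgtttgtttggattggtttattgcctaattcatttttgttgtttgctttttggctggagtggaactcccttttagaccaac
Positions are counted back from the RefSeq start, and shares are over 32817 RefSeq stretches of the same length. The GATA factor motif searched was GATAA, found in 22.6% of all stretches and in Fabp1 on the minus strand from -132 to -128. For HNF1 the motif was GTTAAT (6.44% of stretches), found in Fabp1 at -107. For CDX factors it was TTTATG (10.8%), found in Fabp1 on the minus strand at -226 and -88. The core motif of nuclear receptors, AGGTCA (14.0%), was found in Fabp1 on the minus strand at -67 and -9. The TATA box, TATAAA (12.4%), was found in Fabp1 at -30. The HNF4 motif CAAAGTCCA (0.384%) was found in neither gene, and none of the matches in Fabp1 overlapped another. The Fabp2 stretch held none of the 6 motifs. RefSeq stretches were at hand for 5 of the 8 genes. In Cd36 a CDX match and a nuclear receptor match overlapped at -232 and -228, Slc27a4 held a CDX match at -175 and Acsl5 a GATA match at -35. The Cd36 stretch, chr5:17835897-17836146 on the minus strand, lies well inside the gene as the count table annotates it (17781690 to 17888959). It precedes the RefSeq start and not the annotated one. A match is a run of letters and not evidence of binding.

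The uptake genes come first. Cd36 (chromosome 5, 17781690 to 17888959, minus strand, GRCm38), the scavenger receptor that takes up long-chain fatty acids, stood at 63.4, 60.4 and 173.5 CPM in control males and 46.3, 92.7 and 42.5 CPM in stressed males. In control females it stood at 61.2, 77.2 and 92.0 CPM and in stressed females at 83.0, 73.5 and 68.0 CPM. Stressed male 2 lay above 2 control males, and in females all 3 stressed pups lay inside the range of the controls. The fitted log2 fold change of stressed over control was -0.71 ± 0.40 (SE) in males and -0.04 ± 0.40 in females, with adjusted p = 0.757 and 1 (edgeR quasi-likelihood test). Without both pups of control dam 3 these values were -0.04 ± 0.29 and 0.11 ± 0.29.

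Slc27a4 (chromosome 2, 29802634 to 29817522, plus strand) encodes FATP4, a fatty acid transport protein with acyl-CoA synthetase activity. It stood at 549.2, 395.2 and 993.3 CPM in control males and 549.0, 361.6 and 496.6 CPM in stressed males. Control females gave 327.9, 483.8 and 552.2 CPM, and stressed females 305.6, 391.1 and 375.7 CPM. The groups overlapped in both sexes, and control male 1 and stressed male 1 had nearly the same level. Its log2 fold change was -0.46 ± 0.31 in males (adjusted p = 0.771) and -0.35 ± 0.31 in females (adjusted p = 1). With control dam 3 left out it was -0.01 ± 0.25 and -0.19 ± 0.25.

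The binding proteins showed the widest spread. Fabp1 (chromosome 6, 71199827 to 71205023, plus strand), the liver-type fatty acid binding protein, had between 3 and 13 counted reads in the 10 libraries outside control dam 3. The lowest of these counts, 3 in stressed male 1, has an exact 95% Poisson interval of 0.619 to 8.77, which covers counting error only. Control male 3 had 21586 reads and control female 3 had 3596. In CPM the control males stood at 0.270, 0.593 and 1404.1, the stressed males at 0.151, 0.638 and 0.318, the control females at 0.493, 0.566 and 168.4 and the stressed females at 0.521, 0.485 and 0.231. Outside control dam 3 the control and stressed pups therefore covered overlapping low ranges. The log2 fold change was -10.27 ± 3.40 in males (unadjusted p = 0.0111, adjusted p = 0.752, edgeR) and -7.07 ± 3.06 in females (unadjusted p = 0.0402, adjusted p = 1). When the pups of control dam 3 were left out it was -0.22 ± 0.63 and -0.35 ± 0.58.

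Fabp2 (chromosome 3, 122895072 to 122899506, plus strand), the intestinal-type fatty acid binding protein, was well expressed in every library. Control males stood at 130.7, 240.1 and 2141.3 CPM and stressed males at 110.3, 256.6 and 88.3 CPM. Control females stood at 145.0, 156.9 and 656.2 CPM and stressed females at 237.9, 207.3 and 195.4 CPM. All 3 stressed females lay above control females 1 and 2 and below control female 3. The log2 fold change was -2.46 ± 0.94 in males (unadjusted p = 0.0233, adjusted p = 0.752, edgeR) and -0.58 ± 0.90 in females (adjusted p = 1). Leaving out control dam 3 gave -0.29 ± 0.40 in males and 0.50 ± 0.41 in females, the latter with the opposite sign. An antisense gene, 4933405D12Rik, overlaps Fabp2 but had at most 0.390 CPM.

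**Figure D2:**
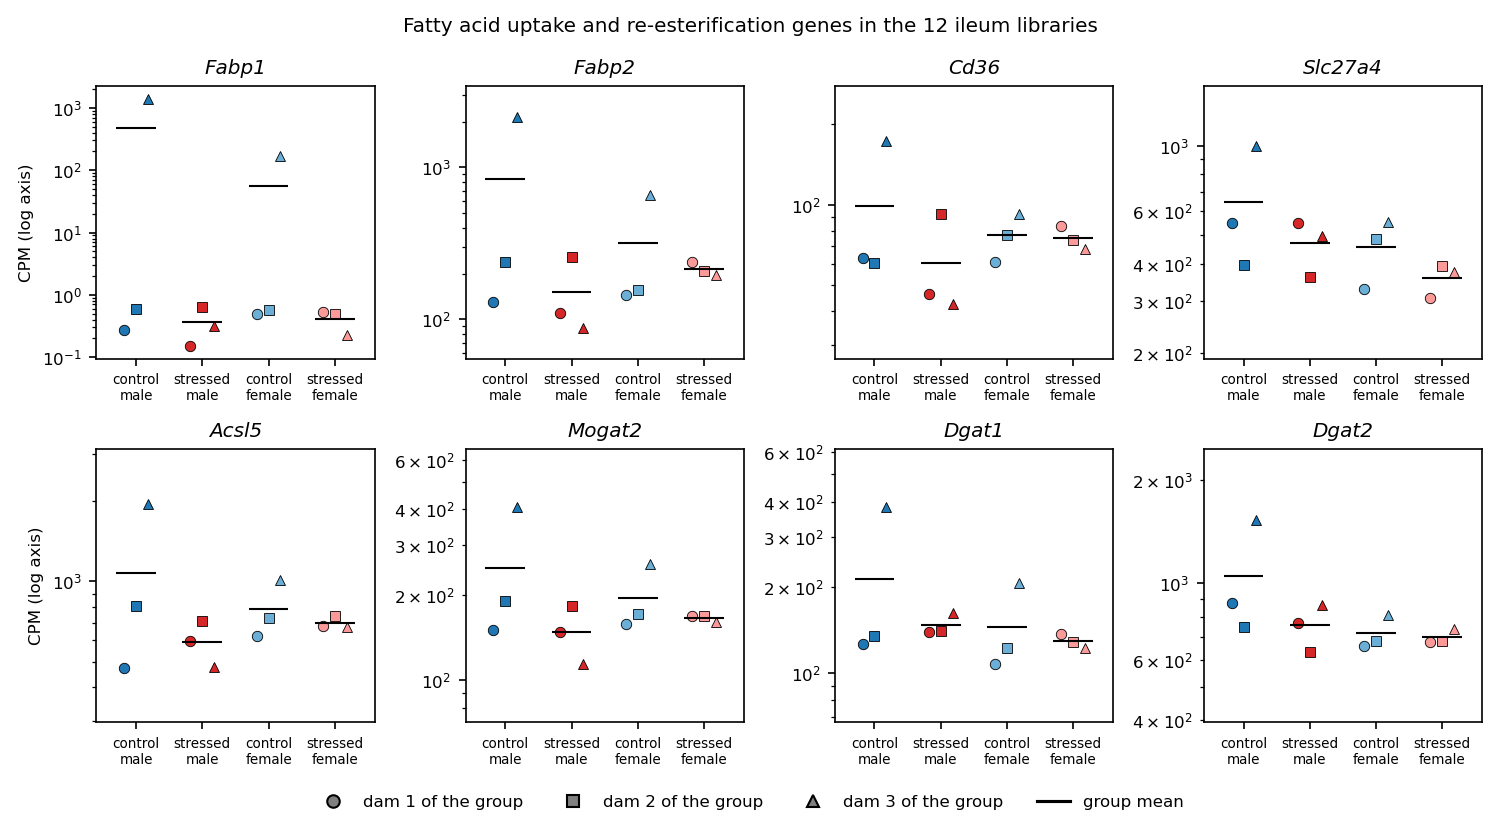
CPM (log axis, with its own range in each panel) of each gene in the 12 libraries by group; the symbol gives the dam's number within its group and the line the group mean. In all 8 panels the male of control dam 3 is the highest point, and among the other 5 dams the stressed pups overlap the control pups in both sexes except for Fabp2 in females and Dgat1 in males, where all stressed pups lie above.

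Acsl5 (chromosome 19, 55253369 to 55296627, plus strand), a major long-chain acyl-CoA synthetase of the enterocyte, stood at 474.3, 808.6 and 1956.4 CPM in control males and 596.9, 709.4 and 476.2 CPM in stressed males. Control females gave 625.0, 727.0 and 1015.6 CPM and stressed females 679.5, 744.6 and 675.5 CPM. The lowest male was control male 1 and the stressed females lay between control female 1 and control female 3. The fitted log2 fold change was -0.86 ± 0.41 in males (adjusted p = 0.752, edgeR) and -0.17 ± 0.40 in females (adjusted p = 1). With the other 5 dams alone it was -0.11 ± 0.24 and 0.05 ± 0.24. The antisense gene Zdhhc6 overlaps Acsl5 and had 32.3 to 45.0 CPM. Whether the counting used strand was not given in the sources used here, so reads of the overlap cannot be told apart.

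Mogat2 (chromosome 7, 99219084 to 99238619, minus strand) encodes the monoacylglycerol acyltransferase that starts re-esterification in the gut. It stood at 150.1, 190.7 and 407.2 CPM in control males, and at 147.4, 183.0 and 113.8 CPM in stressed males. Control females gave 157.9, 171.1 and 257.6 CPM and stressed females 168.5, 168.8 and 160.7 CPM. The stressed females were close together (SD 4.59 CPM, n = 3) and lay between control female 1 and control female 2. The log2 fold change was -0.75 ± 0.33 in males (unadjusted p = 0.0433, adjusted p = 0.752, edgeR) and -0.24 ± 0.33 in females (adjusted p = 1). Without control dam 3 it was -0.21 ± 0.19 and 0.01 ± 0.19. Gm45012, on the other strand, overlaps Mogat2 in the annotation.

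Dgat1 (chromosome 15, 76502015 to 76511951, minus strand), an acyltransferase of the endoplasmic reticulum that completes triglyceride, stood at 126.5, 134.9 and 381.7 CPM in control males and 138.6, 140.5 and 162.3 CPM in stressed males. Control females gave 107.1, 122.3 and 206.0 CPM and stressed females 136.3, 128.5 and 122.2 CPM. All 3 stressed males lay above control males 1 and 2 and below control male 3. The log2 fold change was -0.54 ± 0.38 in males (adjusted p = 0.775, edgeR) and -0.17 ± 0.38 in females (adjusted p = 1). Leaving out control dam 3 turned both signs, to 0.17 ± 0.13 in males and 0.17 ± 0.13 in females.

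Dgat2 (chromosome 7, 99153663 to 99182713, minus strand), a second and structurally unrelated enzyme for the same last step, varied least. Control males stood at 874.8, 745.4 and 1529.8 CPM and stressed males at 769.3, 632.9 and 865.0 CPM. Control females stood at 658.1, 680.2 and 808.5 CPM, and the stressed females, at 675.1, 682.0 and 737.1 CPM, lay inside that range. Fits gave a log2 fold change of -0.47 ± 0.24 in males (adjusted p = 0.752, edgeR) and -0.04 ± 0.24 in females (adjusted p = 1). Without control dam 3 it was -0.10 ± 0.17 and 0.06 ± 0.17.

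No gene of the 8 passed the threshold (adjusted p under 0.05) in either sex. Across all 16102 genes tested the edgeR test called 0% in males and 0% in females. At an unadjusted p under 0.05, 1028 genes (6.38%) stood out in males and 48 (0.298%) in females, and DESeq2 called 0 genes in each sex as well (1136 and 49 at an unadjusted p under 0.05). Of the 8 genes, 3 had an unadjusted p under 0.05 in males (Fabp1, Fabp2 and Mogat2) and 1 in females (Fabp1). The fitted change was below 0 for 8 of 8 genes in males, with a median of -0.73, where 48.3% of all genes were below 0 and the median was 0.01. In females it was also below 0 for 8 of 8, with a median of -0.20 (all genes 51.5% and 0.00). Without both pups of control dam 3, 7 of 8 were below 0 in males (median -0.11, all genes 47.9%) and 2 of 8 in females (median 0.05, all genes 50.7%). Without the 3 Yam1-rich males, 8 of 8 were below 0 in each sex (all genes 48.7% in males and 51.6% in females). The female comparison holds no male library, so its signs could hardly turn. In males, control male 3, the highest library for all 8 genes, stayed in. That fit sets stressed male 2 alone against control males 2 and 3. In it the male log2 fold changes were -10.09 ± 5.40 for Fabp1, -2.21 ± 1.29 for Fabp2, -0.33 ± 0.50 for Cd36, -0.94 ± 0.51 for Slc27a4 and -0.96 ± 0.48 for Acsl5. For Mogat2, Dgat1 and Dgat2 they were -0.71 ± 0.43, -0.88 ± 0.57 and -0.85 ± 0.37, and the adjusted p of the 8 genes lay between 0.944 and 0.948 (edgeR). With all libraries, in neither sex did the stressed and control groups lie apart without overlap for any of the 8. Among all genes the stressed group lay wholly below the control group in 2.95% in males and 2.49% in females, and wholly above it in 2.72% and 3.07%. The tissue is a mixture of cells, so fewer enterocytes and less of a transcript per enterocyte cannot be told apart. Control males 1 and 2 are the only control males in the fit without control dam 3. Their 7 smooth muscle markers summed to 7876.3 and 2833.1 CPM, the highest and the lowest sum of the 12 libraries. The 7 macrophage markers were lowest in control male 1, at 197.4 CPM. The part of these cells in the levels of the 8 genes was not tested. Adipocyte markers were uneven between libraries, as given above. Adipoq stood at 0.270 and 0.148 CPM in control males 1 and 2 and at 3.42, 24.1 and 2.41 CPM in the stressed males. Without control dam 3, 1 of the 8 adipocyte markers was below 0 in males (all genes 47.9%), with a median log2 fold change of 4.18, and none passed the threshold. In females 2 of 8 were below 0 (all genes 50.7%), with a median of 0.14. The part of adipocytes in the levels of the 8 genes was not tested.

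Because restraint was applied to the dam, the counts of littermates were also summed and 3 stressed dams compared with 3 control dams. The edgeR test called 0% of 16749 genes here, with 228 (1.36%) at an unadjusted p under 0.05, and DESeq2 called 0 (229 at an unadjusted p under 0.05). The log2 fold changes of the 8 genes ran from -9.16 ± 3.01 for Fabp1 and -1.53 ± 0.78 for Fabp2 to -0.26 ± 0.18 for Dgat2, with adjusted p = 1.00 for each. They were below 0 for 8 of 8 genes (all genes 48.7%), with a median of -0.44, and for 5 of 8 without control dam 3 (all genes 48.4%), with a median of -0.03. Without that dam Fabp2 stood at 0.14 ± 0.21, Cd36 at 0.05 ± 0.16 and Dgat1 at 0.15 ± 0.10.

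**Figure D3:**
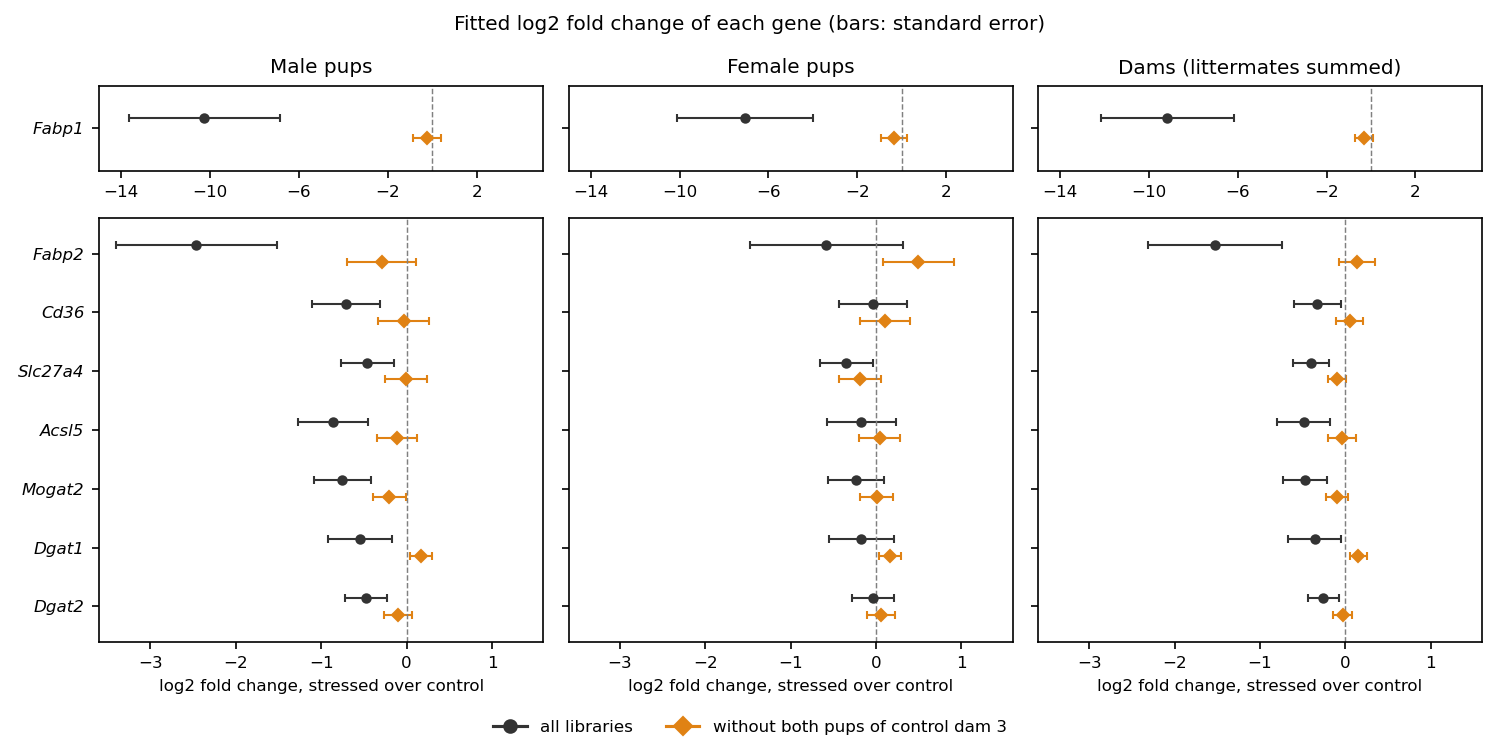
Fitted log2 fold change of stressed over control, with its standard error, for males, females and dams, with all libraries (dark circles) and without both pups of control dam 3 (orange diamonds); Fabp1 has a wider axis of its own. With all libraries every value lies below 0, and without control dam 3 the values lie on both sides of 0, between -0.35 and 0.50.

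The difference between the effects in the 2 sexes was tested itself. The change was more negative in males for 8 of 8 genes, from -3.20 ± 4.55 for Fabp1 and -1.88 ± 1.28 for Fabp2 to -0.11 ± 0.44 for Slc27a4, with adjusted p = 0.999 for each (edgeR). Of all genes, 0% passed (346, or 2.15%, at an unadjusted p under 0.05; DESeq2 called 0, and 395 at an unadjusted p under 0.05) and 50% were below 0. Without control dam 3 the difference was below 0 for 5 of 8 (all genes 48.6%). Males against females, over both treatments, gave values above 0 (higher in males) for 8 of 8 genes, from 0.03 ± 0.28 for Cd36 to 1.45 ± 2.35 for Fabp1, with adjusted p from 0.413 to 0.969. In that comparison 8 of all genes (0.0497%) passed, none of them among the 8 described, and 50.6% of all genes were below 0. Leaving out stressed male 2 raised that count to 1384, again with none of the 8. Without control dam 3, 3 of the 8 genes were above 0, namely Slc27a4 (0.31 ± 0.17), Dgat2 (0.20 ± 0.12) and Dgat1 (0.19 ± 0.09). All of these comparisons share the control libraries of dam 3.

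The 2 pups of control dam 3 had the highest levels for most of the 8 genes. Control male 3 was the highest of the 12 libraries in 8 of 8 genes (15.9% of all genes tested), and control female 3 was second in 6 of 8, a pattern that 6.89% of all genes showed. Control male 3 was at least 2-fold above the median of the 10 libraries of other dams in 8 of 8 (5.22% of all genes). The ratio was 2871.3 for Fabp1 and 12.2 for Fabp2, and for the other 6 it ran from 2.16 (Dgat2) to 2.90 (Dgat1). In control female 3 the ratio was 344.4 for Fabp1 and 3.73 for Fabp2, and from 1.14 (Dgat2) to 1.57 (Mogat2) for the rest, so that the male exceeded its sister by 1.58-fold (Mogat2) to 8.34-fold (Fabp1). The exceptions were Cd36, where control female 3 ranked 3, and Dgat2, where it ranked 4. Both libraries had a high sum of the proximal markers, though in the female Onecut2 and Cyp26b1 were not high. Both were low in Slc6a14, and the male was low in Fabp6, as given above. Other distal markers lay the other way, with Slc51b higher in both and Fgf15 highest in the female. The 7 markers of the suckling ileal enterocyte summed to 2921.9 CPM in the male and 4325.7 CPM in the female, against 3188.3 to 4023.6 CPM elsewhere. The part of these marker differences in the levels of the 8 genes was not tested. The summed level of the 8 genes was 8987.4 CPM in the male and 3756.5 CPM in the female of that dam, and between 2082.7 and 2575.9 CPM elsewhere.

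**Figure D4:**
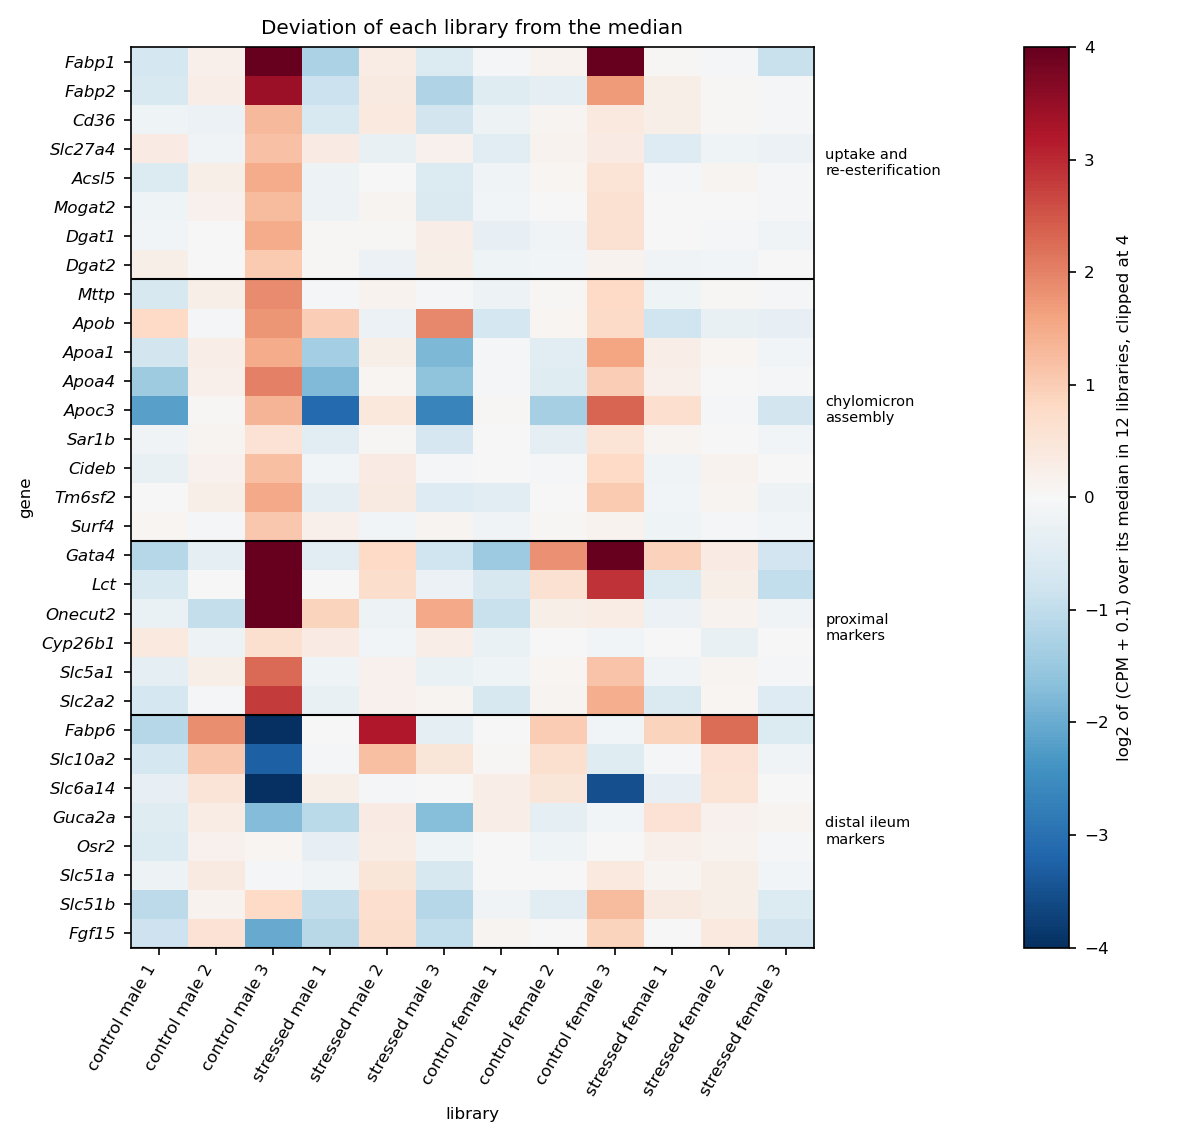
Each cell gives log2 of (CPM + 0.1) over the gene's median in the 12 libraries, clipped at 4, for the 8 genes, chylomicron genes and the proximal and distal markers with a median of at least 0.2 CPM (31 genes). The columns of control male 3 and control female 3 are red for most of the 8 genes and proximal markers, and blue for Fabp6 in the male and Slc6a14 in both. The distal markers do not all lie one way, and Slc51b is red in both.

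Among the 10 other libraries the genes varied less and did not all move together. The highest library exceeded the lowest by 4.23-fold for Fabp1, where counts were few, by 2.91-fold for Fabp2 and by 2.18-fold for Cd36. For Slc27a4, Acsl5, Mogat2, Dgat1 and Dgat2 the ratio fell between 1.38 and 1.80. Pearson correlations of log2 CPM between the 28 pairs of these genes were positive in 28 of 28 pairs over 12 libraries (median 0.82, lowest 0.43 for Cd36 with Slc27a4). Over the 10 libraries they were positive in 13 of 28, with a median of -0.18. Fabp1, Fabp2, Cd36, Acsl5 and Mogat2 were positively correlated with each other (0.59 to 0.89), as were Slc27a4, Dgat1 and Dgat2 (0.32 to 0.74), and every pair across these 2 sets was negative, down to -0.77 for Acsl5 with Dgat2. These are descriptions, since the points share libraries, scaling and litters. The 3 Yam1-rich males were the 3 lowest of the 10 for Fabp2, Acsl5 and Mogat2 and the 3 highest for Slc27a4 and Dgat2. They also had the lowest sums of enterocyte markers, at 5805.5, 6419.9 and 5961.2 CPM against at least 6440.9 CPM in the other 7. Control male 1 lay below the median of the 10 for each of these markers. In stressed males 1 and 3 the markers were split. Epcam, Krt20, Cdh1, Cldn7 and Alpi lay below that median in both. Anpep (718.0 and 704.0 CPM, median 627.0 CPM) and Vil1 (1066.9 and 1112.7 CPM, median 1028.7 CPM) lay above it, and Cdh17 lay on either side. The part of the Yam1-rich males in these correlations was not tested.

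**Figure D5:**
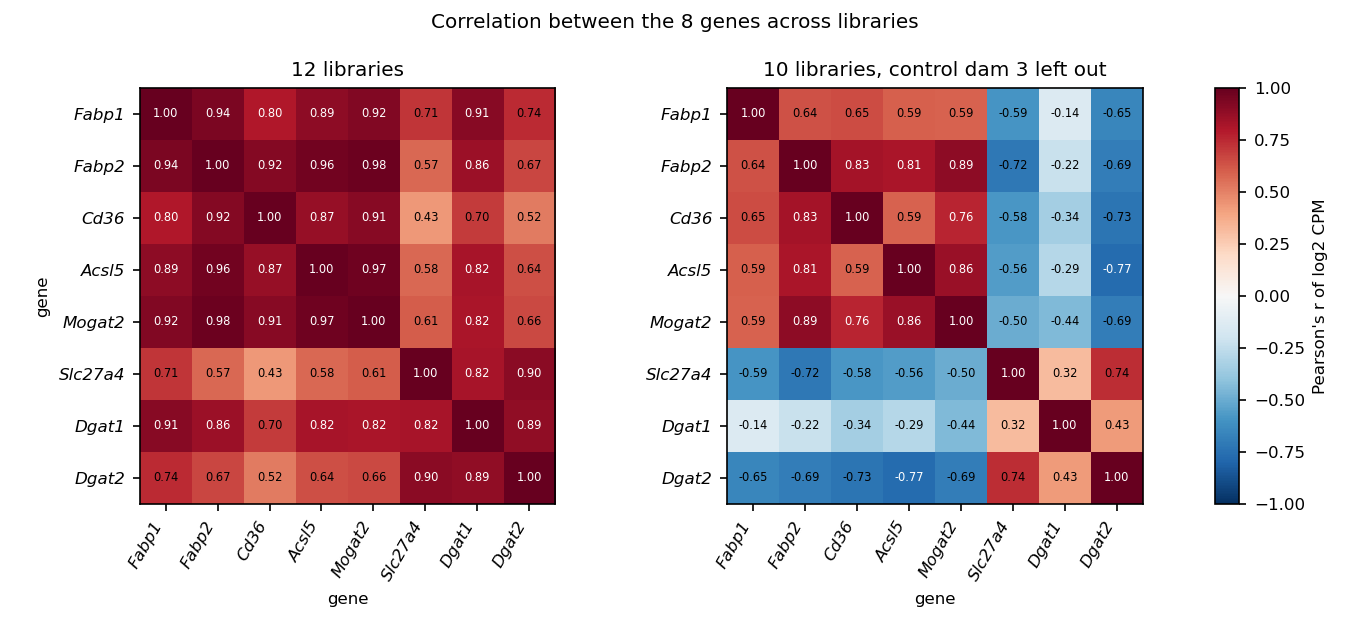
Pearson's r of log2 CPM between each pair of the 8 genes, over 12 libraries (left) and over the 10 libraries without control dam 3 (right), with red for positive and blue for negative values. All pairs are positive on the left, and on the right 13 of 28 pairs are positive, in 2 blocks with negative values between them.

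Other genes of the same route were followed in fixed lists. None of them passed in males or in females. Beside the counts below 0 in each list, the share of all genes below 0 was 48.3% in males and 51.5% in females. Of 11 other uptake and binding genes, 6 were below 0 in males and 2 in females, with medians of 0.00 and 0.14. Of these, Dbi, the acyl-CoA binding protein, stood at -0.37 ± 0.44 in males, Fabp4 at 0.49 ± 0.52 and Fabp6 at 1.43 ± 1.36. The transporter Slc27a1 stood at 0.38 ± 0.14 in males (unadjusted p = 0.0231, adjusted p = 0.752, edgeR) and Slc27a2 at -1.29 ± 0.71. Of 6 other acyl-CoA synthetases (those tested of 7 listed), 3 were below 0 in each sex, with medians of 0.06 and 0.00. Acsl3 stood at -0.12 ± 0.23 in males, Acsl1 at -0.09 ± 0.18, Acsf2 at 0.13 ± 0.19, Acsl4 at 0.37 ± 0.21 and Acsm3 at 0.43 ± 0.35.

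Of 16 other genes of glycerolipid synthesis and storage (those tested of 18 listed), 11 were below 0 in males and 10 in females, with medians of -0.12 and -0.05. Gpam, the mitochondrial enzyme of the first acylation of glycerol phosphate, stood at 0.49 ± 0.17 in males (unadjusted p = 0.0152, adjusted p = 0.752, edgeR). Agpat2, which adds the second acyl group, stood at -0.55 ± 0.25 (unadjusted p = 0.0470, adjusted p = 0.752, edgeR). The lipid droplet coat genes Plin2 and Plin3 stood at -0.31 ± 0.21 and -0.22 ± 0.12. In control male 3, 3 of these 16 reached 2-fold over the median of the 10 other-dam libraries (5.22% of all genes). Of 13 transcription factors of lipid absorption, 8 were below 0 in each sex, with medians of -0.05 and -0.09. Creb3l3, a membrane-bound activator of apolipoprotein genes, stood at -0.86 ± 0.31 in males (unadjusted p = 0.0174, adjusted p = 0.752), Ppard at -0.42 ± 0.30, and Hnf4a and Cdx2, which maintain the intestinal epithelium, at -0.04 ± 0.14 and -0.12 ± 0.14.

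The 9 genes of chylomicron assembly, the next step after re-esterification, were below 0 in 8 of 9 cases in males (median -0.86, all genes 48.3%). In females they were below 0 in 9 of 9 (median -0.34, all genes 51.5%). Apoa4, an apolipoprotein of chylomicrons, stood at 815.1, 2511.4 and 8849.0 CPM in control males and 648.2, 2340.4 and 725.8 CPM in stressed males, which overlapped, with a log2 fold change of -1.71 ± 0.75 (unadjusted p = 0.0423, adjusted p = 0.752). Apoa1 stood at -1.31 ± 0.68, Sar1b, a coat protein for chylomicron export, at -0.54 ± 0.26 and Apob, the structural protein of the particle, at 0.12 ± 0.56. Without control dam 3, 5 of the 9 were below 0 in males and 2 in females (all genes 47.9% and 50.7%), with medians of -0.22 and 0.14. Control male 3 exceeded the median of the 10 other-dam libraries at least 2-fold in 8 of these 9 genes (5.22% of all genes).

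The authors' deposited table of comparisons, whose log2 fold changes have a smaller range than those fitted here, gave negative values for all 8 genes in males and in females. In the authors' deposited table the male values ran from -0.12 (Fabp1) to -0.48 (Mogat2, p = 0.0493), with an adjusted p of 1.00 for each of the 6 genes that had one, and with none for Fabp1 and Fabp2. For all stressed against all control pups the authors' deposited table gave Fabp2 at -0.27 (p = 0.0251) and Mogat2 at -0.33 (p = 0.0331), with adjusted p = 1.00.

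The genes whose log2 CPM most resembled each of the 8 over the 12 libraries were sought among 14519 genes with a mean of at least 1 CPM, as a description over libraries that share litters and include control dam 3. For Fabp1 they were Decr1, Asah2 and Exoc3l4 (r = 0.988 to 0.991), and over the 10 libraries without control dam 3 the r of Decr1 was 0.76. For Fabp2 they were Atl2, H2-Q2 and Gsdmd (0.985 to 0.987, Atl2 0.92 over 10 libraries), and for Cd36 they were Ceacam18, Eci3 and Cdip1 (0.946 to 0.955, Ceacam18 0.88). For Slc27a4 they were Pcyt1a, Agpat3 and Epb4.1l4b (0.967 to 0.977), and Agpat3 was the nearest over the 10 libraries too, at 0.99. For Acsl5 they included Cyp4f16 and Dak (0.987 and 0.985, Cyp4f16 0.95), and for Mogat2 they were Dnaaf1, Sec14l2 and Hsd17b11 (0.982 to 0.983, Dnaaf1 0.92). For Dgat1 they were 1010001N08Rik, Lpar5 and Tmem86a (0.975 to 0.978), with 1010001N08Rik nearest over the 10 libraries as well, at 0.98. For Dgat2 they were Prdm16, Vps54 and Ticam1 (0.968 to 0.983), and Vps54 was nearest over the 10 libraries at 0.98.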

How the data were processed

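The 12 libraries are ileal RNA of 14-day-old pups. The deposited count table holds raw read counts per gene, and the FPKM values were deposited by the authors for the same genes and libraries. Per the file headers, the authors' table of comparisons holds log2 fold changes with raw and adjusted p-values per gene. Builds GRCm38 and mm10 and the tools HTSeq 0.6.1, STAR 2.5, TopHat, edgeR 3.16.5 and DESeq2 are named, without roles, in the submitters' processing notes. The use of strand in counting is not given there. Each of the 240813 nonzero counts, divided by gene length and library total, equalled the FPKM within 1e-06. No library was a copy of another.

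The main test was edgeR's quasi-likelihood F test (edgeR 4.0.16 under R 4.3.3, filterByExpr, TMM scaling, Benjamini-Hochberg adjustment over all genes tested, threshold 0.05). 1 fit of the 4 groups on 16102 genes gave the comparisons within sex, their difference and males against females. For dams, littermates' counts were summed (3 against 3, 16749 genes). SE is the log2 fold change over the root of its F. Pups of 1 group come from different dams, so each comparison within sex sets litters against litters. Its spread was estimated from all 12 libraries without a term for the dam, so littermates counted as independent there. All 8 genes passed the filter on low counts in each fit, also without control dam 3.

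The 8 genes, the lists of other genes, the motifs and the libraries left out were chosen with earlier results of these data known. Each list's members of highest mean FPKM (3) and smallest unadjusted p in males (2) were taken for naming, and Adgre1, Gpat3 and Gpat4 were matched by older symbols. In the search for genes of like pattern, 1 gene is not reported here. By the labels littermates share a dam, which pairs them between sexes, while no label pairs a stressed with a control dam. Correlations of deviations from the group mean ran from -0.362 to 0.545 for littermates and from -0.329 to 0.306 for same-numbered dams. The alternatives tried were DESeq2 1.42.0, its size factors in edgeR, no filter, control dam 3 left out, the 3 Yam1-rich males left out (which leaves 1 stressed male, assumed to vary like the other groups), each library or dam left out, 1 sex alone, 12 pups with sex as a covariate and a replicate block. The fits were tested on simulated data.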

Additional observations from a re-analysis of the deposited data

How the results depend on the processing

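With none of the alternatives did any of the 8 genes pass the threshold, and the smallest adjusted p of any of them was 0.157 in males, 1.00 in females, 0.638 over dams, 0.405 for the difference between sexes and 0.156 for males against females (edgeR or DESeq2). Of 688 recomputed values, 634 kept their direction and their side of the threshold, and 49 turned their sign. The other 5 (Fabp1 in DESeq2, 1 per comparison, no adjusted p given) had no call. The 688 include comparisons within 1 sex refitted with libraries of the other sex left out, or with that sex alone. In these the compared libraries stayed the same and no sign turned. The share of values that kept their direction is thus not a measure of stability. All sign changes came from leaving out libraries or from the block. Size factors, the filter, 1 sex alone, sex as a covariate and leaving out the Yam1-rich males turned none.

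Without both pups of control dam 3 the log2 fold change turned to 0.17 for Dgat1 in males. In females it turned to 0.50 for Fabp2, 0.11 for Cd36, 0.046 for Acsl5, 0.0093 for Mogat2, 0.17 for Dgat1 and 0.057 for Dgat2, and over dams to 0.14 for Fabp2, 0.054 for Cd36 and 0.15 for Dgat1. The difference between sexes turned to 0.13 for Fabp1, 0.18 for Slc27a4 and 0.0030 for Dgat1. Males against females turned to -0.21 for Fabp1, -0.10 for Fabp2, -0.23 for Cd36, -0.15 for Acsl5 and -0.054 for Mogat2.

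The dam number as a replicate block turned Cd36 to 0.012 in females, and the dam as a replicate block, which pairs littermates, turned Cd36 to -0.10 and Acsl5 to -0.011 in males against females. The block changed no call of the 8 genes, and genes past the threshold in males against females numbered 6 in place of 8. Over all genes that count was 18 in DESeq2, 5 without the Yam1-rich males and 1384 without stressed male 2, for a range of 8 to 1384 with 1 library left out. In males it ranged from 0 to 1, with the 1 gene found without stressed male 2. The cause was not tested.

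With 1 library or dam left out, values that changed sign had these ranges. In males Dgat1 ranged from -0.82 to 0.17, positive without control male 3. In females the ranges were -0.97 to 0.50 for Fabp2, -0.21 to 0.11 for Cd36, -0.35 to 0.050 for Acsl5, -0.40 to 0.013 for Mogat2, -0.38 to 0.17 for Dgat1 and -0.12 to 0.061 for Dgat2, each positive without control female 3 (Cd36 also without stressed female 3, 0.035). Over dams they were -1.99 to 0.14 for Fabp2, -0.51 to 0.054 for Cd36 and -0.58 to 0.15 for Dgat1, positive without control dam 3. For the difference between sexes they were -9.92 to 6.85 for Fabp1, -2.97 to 0.29 for Fabp2, -1.12 to 0.0031 for Cd36, -0.37 to 0.34 for Slc27a4, -1.05 to 0.063 for Acsl5, -0.78 to 0.033 for Mogat2 and -0.71 to 0.34 for Dgat1, each positive without control male 3, and Slc27a4 also without control female 1 or stressed male 2. For males against females they were -3.57 to 4.81 for Fabp1, -0.64 to 0.99 for Fabp2, -0.31 to 0.17 for Cd36, -0.26 to 0.29 for Acsl5 and -0.18 to 0.22 for Mogat2, all negative without control male 3, and Cd36 also without control female 1, stressed female 3 or stressed male 2. Precision is limited by 3 dams a group and, for Fabp1, by 3 to 13 reads in 10 libraries.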

Other observations

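Other lipid and brush border genes were high in the same libraries. These were picked after their values were seen. Soat2, which esterifies cholesterol, stood at 156.6 CPM in the male and 101.5 CPM in the female of control dam 3, where the other 10 libraries lay between 26.6 and 44.1 CPM. Slc27a2, a transporter of very long-chain fatty acids, had 55.4 and 26.7 CPM in this pair and 4.59 to 17.3 CPM elsewhere. Anpep, a brush border aminopeptidase, had 2223.2 and 1096.1 CPM in the pair and 257.8 to 718.0 CPM elsewhere, and Krt20, a keratin of mature epithelium, 545.0 and 200.3 CPM in the pair and 26.3 to 114.8 CPM elsewhere. Acsl3, an acyl-CoA synthetase of the endoplasmic reticulum and lipid droplets, lay the other way, at 128.5 and 81.4 CPM against 144.0 to 208.7 CPM. Anpep and Krt20 belong to the 8 enterocyte markers, of which only 2 reached 2-fold over the median of the 10 libraries in control male 3. Epcam, at 1406.8 CPM, and Cldn7, at 609.8 CPM, lay within the range of the 10 there.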
